A study of Drosophila melanogaster with 4 samples.

Results

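The region described is the first 2 Mb of the assembled right arm of chromosome 3 of Drosophila melanogaster, 3R:1-2000000 on FlyBase release 5. In that assembly the sequence of 3R starts at its centromere end. The region was set by its position, with earlier results of these data known. It was divided into 2000 windows of 1 kb, out of 139719 such windows over the 13 sequences that carry clusters. All 2000 windows have a value in each list, and none was filtered out. Trimethylation of lysine 9 of histone H3 (H3K9me3) was mapped by chromatin immunoprecipitation and sequencing (ChIP-seq) in nuclei from heads of wild-type Oregon-R flies of mixed adult stage. Heads were collected by sieving from cages run on an adult cycle of 22 days, and the sex is not given. The 4 samples are 2 H3K9me3 ChIP libraries and 2 input libraries of genomic DNA from the same strain, stage and genotype. The values come from 3 deposited lists of enriched clusters, 1 for each ChIP replicate and 1 for the series, called the combined set here. Heads hold neurons, glia, muscle, fat body and cuticle-forming cells, so each cluster is an average over cell types, and the labelled tissue could not be checked because the lists hold no expression values. The labels do not state that the replicates are separate collections, and the variation between them may be technical.

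H3K9me3 is laid down on nucleosomes by histone methyltransferases such as Su(var)3-9 and Eggless and is bound by heterochromatin protein HP1a. In flies it marks the repeat-rich chromatin around the centromeres, the dot chromosome and the Y, while the gene-rich arms carry it at scattered sites, often at transposon insertions. The centromere end of an assembled arm is where its gene-rich sequence approaches this pericentric heterochromatin.

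The proximal 2 Mb of 3R carried scattered H3K9me3 clusters over a small part of its length. Clusters covered 7.45% of it in replicate 1 and 7.42% in replicate 2 (mean 7.43% ± 0.023, SD, n = 2), and 15.6% in the combined set. In base pairs this was 149 kb in replicate 1 and 148 kb in replicate 2. Coverage was denser than on the remaining 25.9 Mb of the arm, where it was 4.48% in replicate 1 and 3.79% in replicate 2 (mean 4.13% ± 0.49). The difference, the proximal region minus the rest of 3R, was 2.97 percentage points in replicate 1 and 3.63 in replicate 2 (mean 3.30 ± 0.46), larger than the spread between replicates, and the ratio of the means was 1.80. The ratio was 1.54 in the combined set. With 2 libraries an exact two-sided sign-flip permutation test cannot give a p under 0.5, so the differences here are read against the spread between replicates and carry no p-value.

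Among the 14 successive blocks of 2 Mb into which the arm can be cut, the last being shorter, the proximal block had the highest coverage in each replicate. The 13 other blocks lay between 1.29% and 6.05% in replicate 1 and between 1.04% and 5.49% in replicate 2. The combined set put the proximal block at rank 2, with 15.6%, behind the next block outward, 3R:2000001-4000000, with 17.1%.

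A 1 kb window was counted as covered when clusters held at least 50% of it. By that rule 100 of the 2000 windows, 5.00%, were covered in both replicates, against 2.71% of all 27905 windows of 3R. Replicate 1 had 153 covered windows (7.65%, against 4.76% of the arm's windows) and replicate 2 had 149 (7.45%, against 4.08%). The combined set had 313, or 15.65%, against 10.6% of the arm's windows. No base of a cluster from either replicate lay in 1725 of the windows, or 86.25%, a lower share than the 91.9% on the rest of 3R. The 100 windows covered in both replicates fell into 37 runs of adjacent windows, and the longest run was 10 windows. On the rest of 3R 657 such windows fell into 299 runs, the longest of 8 windows.

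**Figure D1:**
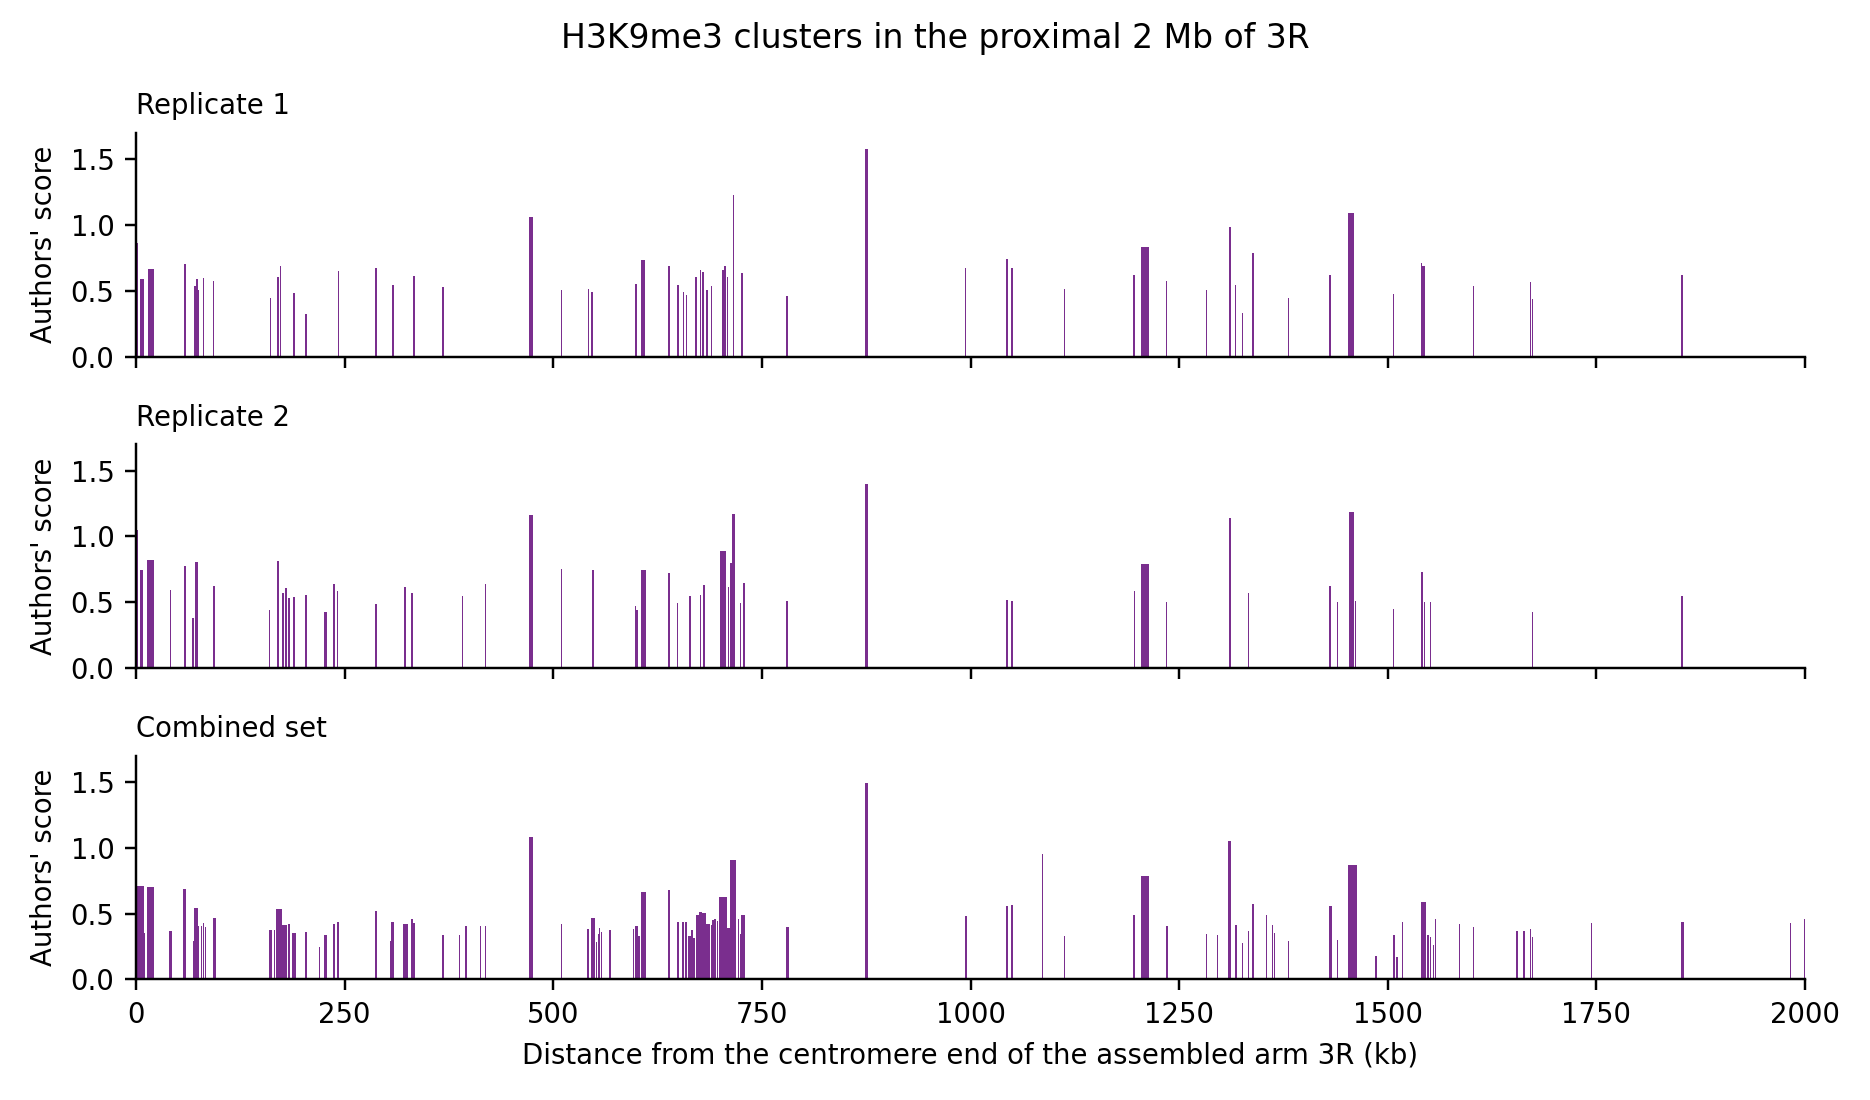
Clusters of the 3 lists along the proximal 2 Mb of 3R. The horizontal axis is the distance from the centromere end of the assembled arm (kb), each bar spans 1 cluster to scale, and its height is the score the authors deposited for it. Clusters gather near the end and at 600 to 800 kb, the tallest bar in each list stands alone between 800 and 900 kb, and few bars lie beyond 1700 kb.

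Away from the centromere end the coverage declined within the region, but not evenly. The first 500 kb were 9.62% covered in replicate 1 and 11.6% in replicate 2, with 20 and 24 clusters. The next 500 kb were 8.97% and 9.49% covered, with 22 and 18 clusters. The 500 kb after these were 8.44% and 6.63% covered, with 14 and 11 clusters. The last 500 kb were 2.77% and 1.94% covered, with 7 and 6 clusters. Coverage in the first 500 kb exceeded that in the last by 6.85 points in replicate 1 and 9.67 points in replicate 2 (mean 8.26 ± 1.99). The decline did not go on past the region. The next block outward, 3R:2000001-4000000, was 5.36% covered in replicate 1 and 5.49% in replicate 2, more than the last 500 kb.

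The first 3 of these 500 kb parts were each more densely covered than the rest of 3R in both replicates, and the last was less densely covered than it. The mean differences from the rest of the arm were 6.48 points ± 1.89, 5.10 ± 0.86, 3.41 ± 0.79 and -1.78 ± 0.10 (SD, n = 2), in order outward. By these 500 kb parts, the higher coverage of the proximal region lay in its first 1500 kb, but not in all of that stretch. In windows of 100 kb, mean coverage was 3.96% at 800 to 900 kb, 0.81% at 900 to 1000 kb and 2.75% at 1100 to 1200 kb. These values were under the mean coverage of the rest of 3R, 4.13%. The median 100 kb window there was lower, at 2.91%, so the window at 800 to 900 kb lay above that median. Median cluster widths in the first 500 kb were 1889 bp for replicate 1 and 1806.5 bp for replicate 2, against 1788 and 1613.5 bp in the last 500 kb, a mean difference of 147 bp ± 65.1. The combined set had medians of 2527 and 1664 bp there.

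In 100 kb windows the profile had a peak at the end, a second peak at 600 to 800 kb and a lower rise at 1200 to 1500 kb. The window at the very end, 3R:1-100000, was the densest, at 24.5% in replicate 1 and 24.9% in replicate 2 (mean 24.7% ± 0.33), and 43.3% in the combined set. It had rank 3 among the 279 full 100 kb windows of the arm by mean coverage, and the highest window on the rest of 3R reached 26.3%. The next window outward dropped to 7.35% in replicate 1 and 11.5% in replicate 2. Coverage then stayed between 4.51% and 10.6% in both replicates up to 600 kb.

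The second peak covered 2 windows. 3R:600001-700000 was 20.5% covered in replicate 1 and 18.5% in replicate 2 and had rank 6 on the arm. 3R:700001-800000 was 11.8% covered in replicate 1 and 18.4% in replicate 2. In the combined set they were 51.4% and 28.8% covered, and the first of them was the only window of the region that any list covered by at least 50%. The rise farther out was 12.1% ± 1.28 at 1200 to 1300 kb and 11.3% ± 1.52 at 1400 to 1500 kb. Between these, at 1300 to 1400 kb, it was uneven, with 9.97% covered in replicate 1 and 3.99% in replicate 2.

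Together the end window and the 2 windows of the second peak held 38.1% of the covered sequence of the region in replicate 1 and 41.7% in replicate 2. Leaving out these 3 windows, which were chosen after their values were seen, the region was 5.26% ± 0.24 covered, 1.12 points ± 0.25 above the rest of 3R. Leaving out the end window alone, it was 6.52% ± 0.042 covered, 2.39 points ± 0.45 above. In both cases the rest of 3R kept its own densest windows, which makes the difference smaller. With all windows kept, the median mean coverage of a 100 kb window was 6.19% in the region and 2.91% on the rest of 3R. Windows at least 10% covered in both replicates numbered 5 of 20 in the region and 17 of 259 on the rest of 3R. At the other extreme, 3R:1700001-1800000 and 3R:1900001-2000000 held no cluster in either replicate, as did 65 of the 259 full windows of the rest of 3R. The combined set covered 1.04% and 2.47% of those empty proximal windows.

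**Figure D2:**
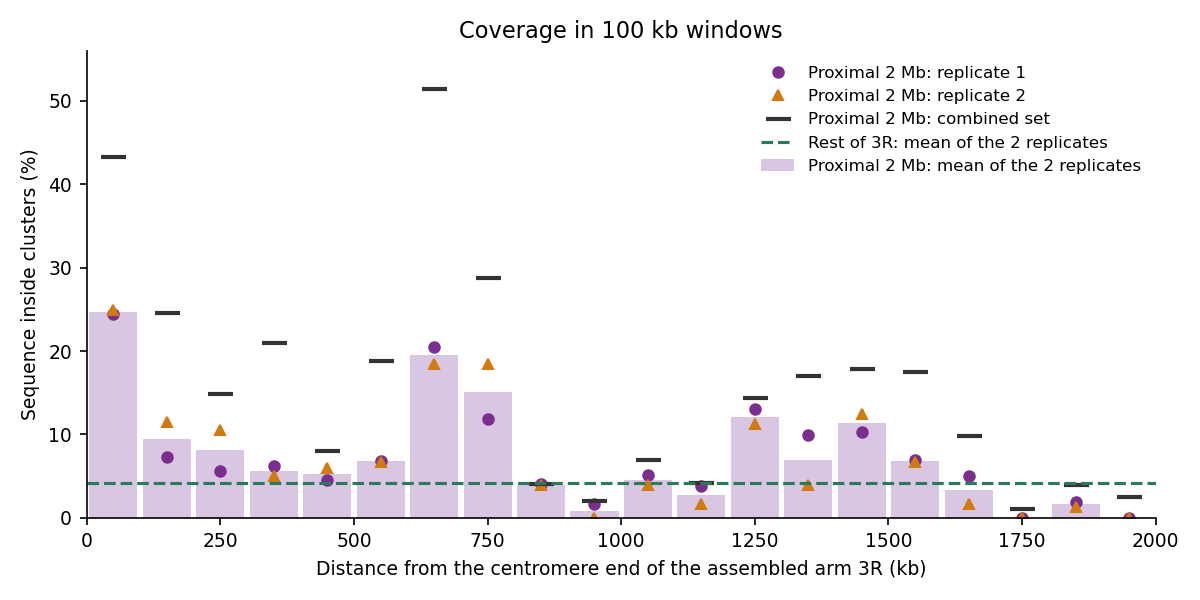
Coverage by clusters in the 20 windows of 100 kb. The horizontal axis is the distance from the centromere end of the assembled arm (kb) and the vertical axis the percent of each window inside clusters; bars are means of the 2 replicates, dots and triangles the replicates, short lines the combined set, and the dashed line the mean coverage of the rest of 3R, 4.13%. The end window and the windows from 600 to 800 kb stand highest. From 1600 kb outward all bars lie under the dashed line, as do those at 800 to 1000 and 1100 to 1200 kb. The median 100 kb window of the rest of 3R, 2.91%, is lower than that line and is not drawn.

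Most clusters of the region were a few kb wide at most. Replicate 1 had 63 clusters with a median width of 1890 bp and quartiles of 1590.5 and 2415 bp. Replicate 2 had 59 clusters with a median of 1816 bp and quartiles of 1561.5 and 2988 bp. On the rest of 3R the medians were 1874 bp in replicate 1 and 1871 bp in replicate 2, so the difference, -19.5 bp ± 50.2, was smaller than the spread between replicates. The median of the combined set was 1994 bp in the region, against 1758 bp on the rest of 3R. Clusters of at least 3 kb numbered 10 (15.9%) in replicate 1 and 15 (25.4%) in replicate 2, against 15.0% in each replicate on the rest of 3R, so the share was higher in replicate 2 and nearly the same in replicate 1. For the combined set it was 28.3%, against 16.8% on the rest of 3R. Clusters of at least 5 kb numbered 3 of 63 in replicate 1 and 5 of 59 in replicate 2, against 17 of 525 and 11 of 448 on the rest of 3R. Minimum widths in the region were 1306 bp for replicate 1, 1318 bp for replicate 2 and 1001 bp for the combined set. Over the whole files they were 1301, 1242 and 1001 bp, and no list holds a shorter one.

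The number of clusters differed from that on the rest of the arm by more than the spread between replicates. There were 31.5 clusters per Mb in replicate 1 and 29.5 in replicate 2, against 20.3 and 17.3 on the rest of 3R, a mean difference of 11.7 per Mb ± 0.69. The median interval from one cluster to the next was 12.1 kb in each replicate, against 18.5 kb in replicate 1 and 19.1 kb in replicate 2 on the rest of 3R (mean difference -6.70 kb ± 0.47). In the combined set the median interval was 4.83 kb in the region and 4.69 kb on the rest of 3R, so the closer spacing was not seen there. The score, which is the authors' own value for each cluster on a scale that is not stated, had a median of 0.60 in replicate 1 and 0.59 in replicate 2, against 0.60 and 0.63 on the rest of 3R. The difference, -0.017 ± 0.033, was smaller than the spread between replicates.

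Clusters were unevenly spaced. Of the intervals between neighbouring clusters, 18 of 62 in replicate 1 and 17 of 58 in replicate 2 were at most 5 kb (29.0% and 29.3%, against 26.3% and 24.4% on the rest of 3R). The longest was 177 kb in each. On the rest of 3R the longest were 491 and 668 kb, but over 524 and 447 intervals, so these maxima are not directly comparable. Joining clusters that lay up to 10 kb apart gave 37 groups in replicate 1, of which 24 were lone clusters, and 32 in replicate 2, of which 18 were lone clusters. The groups of at least 2 clusters held 61.9% of the clusters in replicate 1 and 69.5% in replicate 2. The largest group had 5 clusters for replicate 1 and 6 for replicate 2, and that of the combined set had 21. Groups were not counted on the rest of 3R, so these values do not show that grouping is particular to the region.

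**Figure D3:**
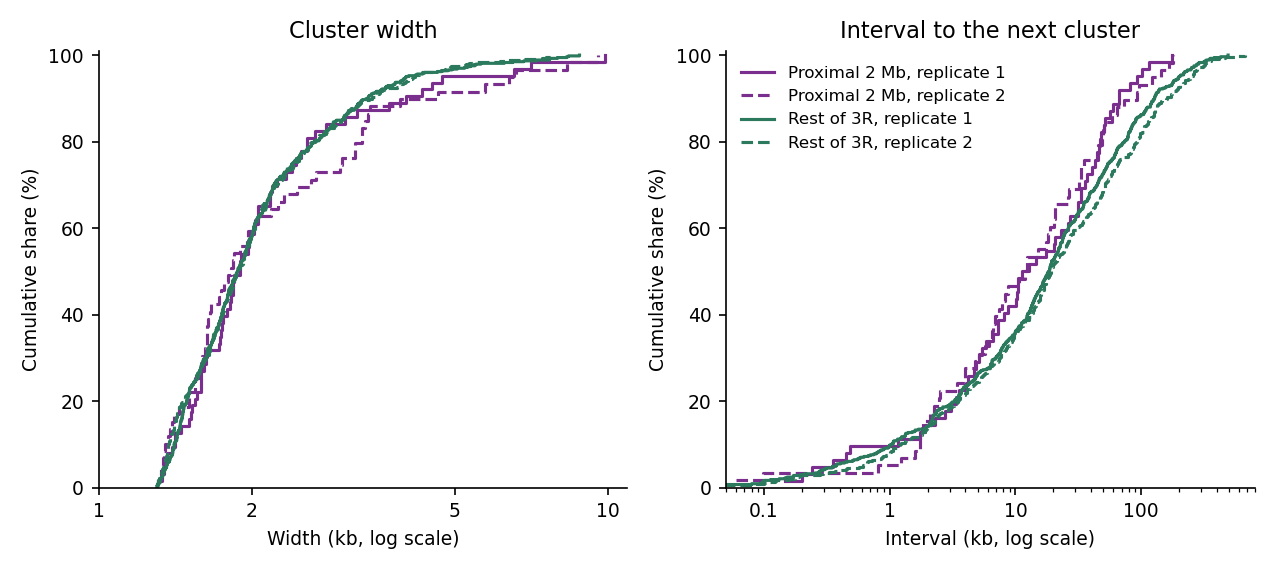
Cumulative shares of cluster widths (left, kb, log scale) and of intervals to the next cluster (right, kb, log scale) in the proximal 2 Mb and on the rest of 3R, for each replicate. The width curves of the region and of the rest of the arm lie close up to the medians, 1853 and 1872.5 bp over the replicates, and above them replicate 2 of the region runs to the right; the interval curves of the region lie to the left from about 5 kb upward, with medians of 12.1 and 18.8 kb.

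The widest group of sequence covered in both replicates, joined across up to 10 kb, lay at 3R:701835-725267, in the second peak. In replicate 1 it comprised 5 clusters of 1.34 to 2.39 kb, and in replicate 2 the wider cluster 3R:699978-706563 and 4 others. The replicates covered 34.3% and 55.9% of its 23.4 kb and the combined set 80.4%. Joined in the same way, the combined set had 21 clusters over 92.6 kb here, from 637253 to 729872. The replicates called fewer and narrower pieces of that stretch.

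The next group stood at the very end of the arm sequence, 3R:14-21580. It consisted of 3 clusters in each replicate: 3R:14-2675, 3R:4957-9262 and 3R:15060-21580 in replicate 1, and 3R:4-2979, 3R:4723-8003 and 3R:13693-22001 in replicate 2. Their scores were 0.86, 0.59 and 0.67 in replicate 1 and 1.05, 0.74 and 0.82 in replicate 2. The first cluster of each list began within the first 14 bp of the arm sequence, so its true width toward the centromere cannot be read from these lists. The replicates covered 62.5% and 65.5% of this group. The groups 3R:1195723-1213538, 3R:637354-649974 and 3R:598375-609982 followed, at 17.8, 12.6 and 11.6 kb, and were 63.0% ± 0.071, 31.0% ± 0.039 and 59.5% ± 8.32 covered.

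The widest single cluster of the region in each replicate was the same one, in the rise at 1200 kb. It ran from 1203904 to 1213758 in replicate 1 (9.86 kb, score 0.83) and from 1203976 to 1213538 in replicate 2 (9.56 kb, score 0.79). No cluster on the rest of 3R was wider in either replicate, where the widest measured 8785 and 7756 bp. In the combined set it measured 9.93 kb and came second to 3R:1452755-1463493 (10.7 kb, score 0.87), which the replicates covered by 65.6% and 73.4%. In that list 2 clusters on the rest of 3R were wider than any in the region. Ranks 3 to 5 in the region were 3R:698796-708199 in the second peak and 3R:8-9286 and 3R:13530-21967 at the end, with scores of 0.62, 0.71 and 0.70. The others of the 10 widest measured 5.33 to 7.04 kb. The narrowest of them, 3R:175448-180775, had no sequence called in replicate 1 and was 54.9% covered in replicate 2.

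The highest-scoring cluster of the region was isolated. It lay at 3R:873416-877497 in the combined set, with a score of 1.49. It was called at 3R:873437-877451 with a score of 1.58 in replicate 1 and at 3R:873505-877408 with a score of 1.40 in replicate 2, the highest of the region in each list. Its edges differed by 68 and 43 bp between the replicates. On its centromere side the nearest cluster was 92.6 kb away in replicate 1 and 92.7 kb away in replicate 2, and on the other side 116 and 166 kb away. The next in score, 3R:470841-475586 (1.08) and 3R:1309122-1311927 (1.05), were 96.2% ± 1.79 and 97.2% ± 3.18 covered by the replicates. Rank 4, 3R:1085235-1086600 (0.95), was found in neither replicate, and rank 5 was 3R:712021-719063 (0.91) in the second peak.

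Most scores in the region were low for their file. The median score of a whole file was 0.83 in replicate 1 and 0.89 in replicate 2, and 7 of 63 and 6 of 59 clusters of the region reached it. These shares, 11.1% and 10.2%, stand beside 8.38% and 6.70% on the rest of 3R. In the combined set the order was the other way, at 19.5% in the region against 21.1% on the rest of 3R. Wider clusters tended to score higher, with a Spearman rho of 0.64 across the 63 clusters of replicate 1 and 0.59 across the 59 of replicate 2; the clusters of a list share a library and a caller, so this is a description.

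Of the 5 longest intervals without a cluster in either replicate, 3 lay in the outer 1 Mb of the region. The longest was 177 kb, 3R:1674422-1851541. The next, 3R:1853441-2001776, measured 148 kb and reached past the outer limit of the region. Between them stood 1 cluster, 3R:1851542-1853440 in replicate 1 and 3R:1851876-1853193 in replicate 2. The combined set covered 0.65% of the longest interval and 3.83% of the next. The following pair, 116 kb at 3R:877452-993346 and 92.6 kb at 3R:780872-873436, flanked the highest-scoring cluster, and 3R:1113363-1195296 came after them at 81.9 kb. Assembly gaps, repeats and mappability were not examined, so the lists do not show that these intervals lack the mark.

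No continuous block was seen at the end of 3R, and both the widths and the intervals differed from those at the more densely covered ends of 2L and 3L. The ends of 2L, 3L and X, whose centromere ends are the last base pairs of their sequences, were measured in the same way. The end of 3L was taken as one with a dense block and that of the X as another without one. The direction of the difference from 3L was therefore known beforehand. The centromere end of 2R was not measured. Coverage of the proximal 2 Mb was 7.43% on 3R, against 65.5% ± 1.69 on 3L, 42.6% ± 1.38 on 2L and 15.4% ± 0.14 on the X. The differences, 3R minus each of these, were -58.0 points ± 1.71, -35.2 ± 1.40 and -7.98 ± 0.12. Median cluster width was 1853 bp ± 52.3 on 3R, against 7860.5 bp ± 750 on 3L, 3448.5 bp ± 95.5 on 2L and 2127 bp ± 39.6 on the X. The widest cluster was 9.86 and 9.56 kb on 3R, against 89.8 and 56.5 kb on 3L, 67.2 and 82.3 kb on 2L and 24.6 and 24.8 kb on the X (replicates 1 and 2). Median intervals ran the other way, at 12.1 kb ± 0.020 on 3R, against 2.06 kb ± 0.13 on 3L, 3.44 kb ± 0.11 on 2L and 5.74 kb ± 0.71 on the X. Each of these differences exceeded the spread between replicates. In the combined set all kept their direction except the median width against the X, which was 1994 bp on 3R and 1945 bp on the X.

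Closing the intervals of up to 5 kb between clusters left shorter stretches on 3R than on the ends of 2L, 3L and X. The longest stretch on 3R was then 20.0 kb in replicate 1 and 21.8 kb in replicate 2, against 246 and 303 kb on 3L, 232 and 283 kb on 2L and 82.3 and 94.5 kb on the X. The longest stretch of the combined set was 81.6 kb on 3R, against 306 kb on 3L, 331 kb on 2L and 110.0 kb on the X. Stretches then held 9.43% and 9.23% of the proximal 2 Mb of 3R, against 70.7% and 72.4% of that of 3L. To bring 50% of the region inside stretches, intervals of up to 52.0 kb had to be closed in replicate 1 and of up to 73.5 kb in replicate 2, in steps of 0.5 kb. The same share took 48.0 and 41.5 kb on the X and 7.50 kb in each replicate on 2L, and the deposited clusters of 3L already exceeded it. The combined set needed 33.5 kb on 3R, 10.5 kb on the X and 0 on 2L and 3L.

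The separate heterochromatic sequence 3RHet, which release 5 holds apart from the arm, was 72.1% covered in replicate 1 and 74.7% in replicate 2, against 7.45% and 7.42% for the proximal 2 Mb of 3R. Its clusters had a median width of 6320 and 6722 bp and a median score of 1.52 and 1.59. How the arm sequence joins 3RHet, and how close the centromere end of each arm sequence lies to the centromere itself, were not examined.

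**Figure D4:**
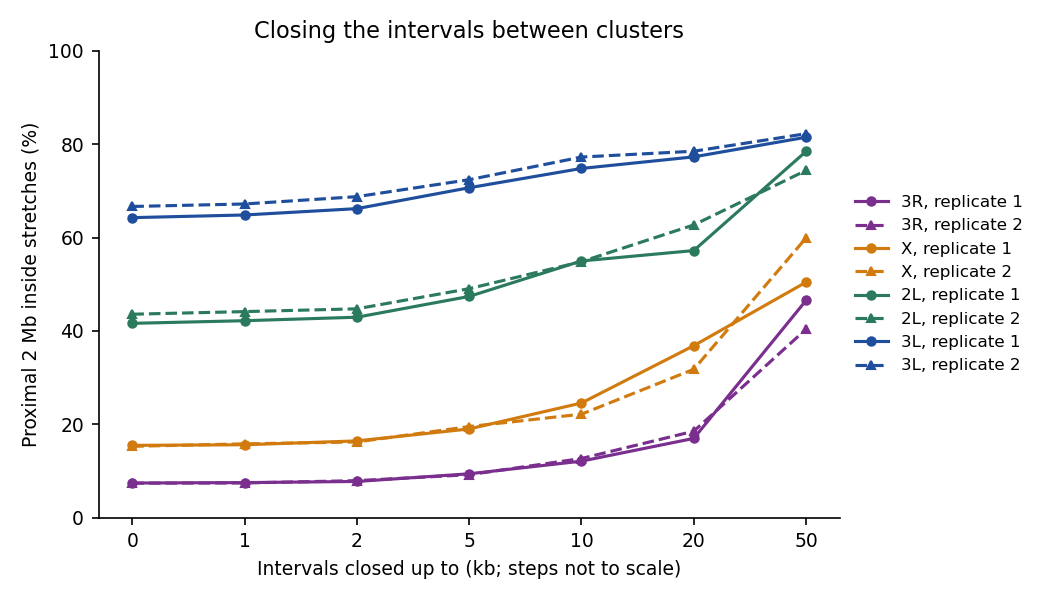
Share of the proximal 2 Mb lying inside stretches (vertical axis, %) after all intervals up to a given length were closed (horizontal axis, kb, steps not to scale), for 3R, X, 2L and 3L and each replicate. The 3R lines lie lowest at every step shown: they start at 7.45% and 7.42%, stay under 20% up to 20 kb and reach 46.5% and 40.4% at 50 kb.

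The replicates shared a part of the clusters of the region. Of the 63 clusters of replicate 1, 42 (66.7%, exact 95% interval 53.7% to 78.0%) overlapped a cluster of replicate 2 by at least 1 bp, against 60.0% of all replicate 1 clusters of 3R. Of the 59 clusters of replicate 2, 41 (69.5%, 56.1% to 80.8%) were found in replicate 1, against 69.4% on all of 3R. The values of the arm lie inside both intervals. The intervals are Clopper-Pearson intervals, cover counting error only and treat neighbouring clusters as independent. In base pairs, 96.5 kb were covered in both replicates out of 201 kb covered in either, a Jaccard index (shared over joint sequence) of 0.48, against 0.43 on the rest of 3R. Over the 20 windows of 100 kb the replicates' coverage had a Spearman rho of 0.93, a description only, since neighbouring windows are not independent.

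The share found in the other replicate was higher among wider clusters. Of the replicate 1 clusters, 19 of 37 under 2 kb, 14 of 16 of 2 to 3 kb and 9 of 10 of at least 3 kb were found in replicate 2. Of the replicate 2 clusters, 20 of 35, 7 of 9 and 14 of 15 were found in replicate 1. Over all of 3R the shares in these classes rose in the same way, at 43.6%, 78.3% and 91.0% for replicate 1 and 54.5%, 87.5% and 95.1% for replicate 2. A wider cluster has more bases with which to overlap another, and the part of this in the difference was not tested. Clusters found in the other replicate had median widths of 2041.5 bp in replicate 1 and 2026 bp in replicate 2, against 1585 and 1561.5 bp for the others. Their median scores were 0.64 and 0.62, against 0.54 and 0.57 for the others. The highest score among the clusters not found was 0.79 in replicate 1 and 0.80 in replicate 2. All 63 clusters of replicate 1 and all 59 of replicate 2 were found in the combined set, against 98.8% and 98.6% over all of 3R.

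In 35 pairs a cluster of one replicate met exactly 1 of the other. These pairs were chosen by their overlap, which itself limits how far apart their edges can lie. The median difference in position over their 70 edges was 212.5 bp and the largest 1843 bp, and 49 of the edges lay within 500 bp of each other. Across the 35 pairs the Spearman rho was 0.66 for the scores and 0.72 for the widths, and 18 of the pairs scored higher in replicate 2.

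**Figure D5:**
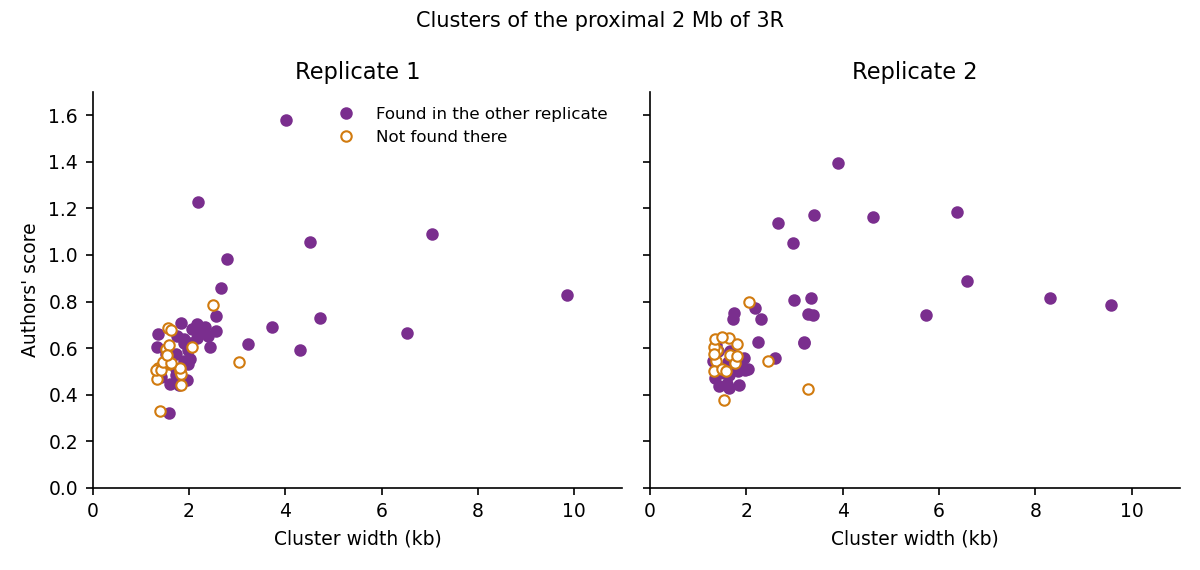
Width (horizontal axis, kb) and authors' score (vertical axis) of each cluster of the proximal 2 Mb of 3R, replicate 1 on the left and replicate 2 on the right. Filled points were found in the other replicate and open points were not; the open points lie at widths of 1.31 to 3.29 kb and at scores of up to 0.80.

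In 1 window of 100 kb both replicates had clusters, but none of them overlapped between the replicates. Replicate 1 covered 6.22% and replicate 2 covered 4.99% of 3R:300001-400000, each with 3 clusters, and no base of it was covered in both. The clusters were 3R:306473-309516, 3R:332386-333975 and 3R:367335-368919 in replicate 1, and 3R:321778-323574, 3R:330103-331918 and 3R:391015-392393 in replicate 2. Of these, 3R:330103-331918 and 3R:332386-333975 lay less than 500 bp apart. All 6 scored between 0.53 and 0.62. The combined set called 9 clusters there and covered 21.0%. This window was singled out after its values were seen.

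The combined set listed 113 clusters in the region. Both replicates held 38 (33.6%) of these. A further 20 were met by replicate 1 only, 15 by replicate 2 only, and 40 (35.4%) by none of the replicate clusters. On the rest of 3R, 23.9% were found in both and 49.9% in neither. The clusters of the region found in neither had a median width of 1357.5 bp and a median score of 0.38, and those found in both had medians of 3588 bp and 0.51. Part of those found in neither were narrower than any replicate cluster of the region. The narrowest there were 1306 bp in replicate 1 and 1318 bp in replicate 2, against 1001 bp in the combined set. What this adds to the share found in neither was not tested. Those found in neither made up 19.3% of the summed width of the combined clusters of the region, against 34.5% on the rest of 3R.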

How the data were processed

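The authors deposited 3 lists of enriched clusters, each cluster with a start, an end and a score. The submitters' processing notes name Bowtie 0.12.7 as the aligner. The genome build is FlyBase release 5, per the file headers. Not given in the sources used here are the caller of the clusters and its settings, how the inputs entered, the scale of the score and how the combined set was made. The lists give no read counts, so depth is unknown.

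Clusters ending beyond the stated end of a sequence, 10 in all, were trimmed to it. Coverage is the percent of bp inside clusters. A cluster belongs to a region when its midpoint lies there. Values are means ± SD over the 2 ChIP replicates. The positions named are the 10 widest and 5 highest-scoring combined clusters of the region, the 5 longest intervals called in neither replicate, the 5 widest groups and the densest and emptiest 100 kb windows; other positions were named after their values were seen. No gene is named, because the gene table used here is of release 6. The region and the measures were chosen with earlier results of these data known. Python 3.11.15, numpy 2.4.6, scipy 1.17.1 and matplotlib 3.10.9 were used, and the interval code was tested on simulated data. Alternatives changed the score, width, joining, list, overlap, region size and closing distance.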

Additional observations from a re-analysis of the deposited data

How the results depend on the processing

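Of the values recomputed under other settings, leaving out a replicate aside, 18 stayed within their spread (for counts within 1.5 times, for the share of clusters found within its interval) and 49 did not, among them the 3 values of the Jaccard index, which has no spread, so that any change was counted. Of the coverage differences recomputed, 0 changed sign. The cause was not tested. When only clusters reaching their file's median score were kept, coverage was 1.43%, the difference from the rest of 3R 0.86 points, from 3L -61.8, from the X -9.89 and between first and last 500 kb 1.48; there were 6.50 clusters (3.25 per Mb), with a median width of 3835.75 bp, a median interval of 218 kb, a Jaccard index of 0.64, 85.7% of replicate 1 clusters found in replicate 2 and a longest stretch of 8.12 kb. With clusters of at least 1.5 kb these were coverage 6.75%, width 1986 bp, interval 16.4 kb, Jaccard 0.50 and stretch 10.8 kb. With clusters joined across 1 kb, coverage was 7.50%, the difference from the X -8.24, the interval 15.6 kb and Jaccard 0.49. In the combined set coverage was 15.6%, the differences 5.49 points from the rest of 3R, -56.1 from 3L, -11.2 from the X and 15.4 between first and last 500 kb, with 113 clusters (56.5 per Mb), a width of 1994 bp, an interval of 4.83 kb and a stretch of 81.6 kb. With 1 Mb in place of 2 Mb, coverage was 9.92% and the 4 differences 5.76, -76.7, -13.2 and 1.38 points. With 4 Mb they were 6.43%, 2.41, -28.9, -6.33 and 2.77. The last of the 4 differences used the last 500 kb of the changed region, so it compared other sequence than in the main setting. Closing 2, 10 and 20 kb gave stretches of 9.71, 28.2 and 92.2 kb, and 58 windows were wholly covered in both replicates. Leaving out the end window or the 3 densest windows, both chosen after seeing the data, gave coverage of 6.52% or 5.26% and differences from the rest of 3R of 2.39 or 1.12 points. The rest of 3R kept its own densest windows there.

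With a replicate left out, coverage ranged from 7.42% to 7.45%, the difference from the rest of 3R from 2.97 to 3.63, from 3L from -59.2 to -56.8, from the X from -8.06 to -7.89, and between first and last 500 kb from 6.85 to 9.67 points. Counts ranged from 59 to 63 clusters (29.5 to 31.5 per Mb), widths from 1816 to 1890 bp, intervals from 12.08 to 12.11 kb and stretches from 20.0 to 21.8 kb. Differences between regions were taken within each library and so are paired by replicate. Between ChIP and input libraries, which share replicate numbers, no paired analysis was possible because the lists hold no value of an input library. Read depth is unknown, so what it limits could not be measured; no list holds a cluster narrower than 1001 bp.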
